A study of Mus musculus with 6 samples.

Results

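The enzymes that remove superoxide and peroxides, and that supply the reducing power for this, were followed in neutrophils lacking the microRNA miR-223. They were represented by 13 probe sets of 10 genes, out of 45101 probe sets on the array. The members were chosen by probe set identifier: 4 for Sod2 and 1 each for Cat, Gpx1, Prdx1, Prdx5, Prdx6, Gclc, Gclm, Txnrd1 and Nqo1. All 13 passed the filter on low signal that left 27022 probe sets to be tested. Messenger RNA was measured on 6 single-colour Affymetrix arrays, 3 with RNA of neutrophils grown from miR-223 null bone marrow and 3 with RNA of neutrophils grown from wild-type bone marrow. In both groups, bone marrow progenitors were grown for 6 days with the cytokines G-CSF and SCF in an isotope-labelling medium, and matured for a further 42 hours once SCF was withdrawn. Live neutrophils were then collected with magnetic beads. The cells are therefore products of a culture and not blood neutrophils. The sources used here give no strain, sex or age of the mice and do not say whether replicates are separate animals or cultures, so p-values measure only the spread between these arrays, which may be technical.

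Neutrophils make superoxide with the NADPH oxidase when they kill microbes, and mitochondria release some in every cell. Superoxide dismutases turn superoxide into hydrogen peroxide, which catalase, glutathione peroxidases and peroxiredoxins reduce to water. Glutathione and thioredoxin pass electrons to the peroxidases and are themselves restored with NADPH. Transcription of Gclc, Gclm, Txnrd1, Nqo1 and Prdx1 is controlled in many cell types by the factor Nrf2, which binds antioxidant response elements, while Sod2 is a well-known target of the inflammatory factor NF-kB.

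The strand of the missing microRNA that is the abundant one in granulocytes is shown because its absence defines the null group; the seed, bases 2 to 8, through which a microRNA recognises its targets, is in capitals. The sequence is from RefSeq, at chrX:96242884-96242905 on the plus strand of GRCm38.p6.
mmu-miR-223-3p: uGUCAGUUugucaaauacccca
Whether the 3' untranslated regions of the 10 genes hold matches to this seed was not analysed here, and neither was the level of miR-223 itself.

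Promoters were read because several members are described as sharing control by Nrf2. RefSeq windows of 300 bases, 250 before and 50 after a start site, matched 8 of the 10 genes by symbol; Prdx6 and Gclc had no window. The core of the antioxidant response element was searched as TGACNNNGC on both strands. It was found in windows of 3 genes, Gclm, Prdx1 and Txnrd1. By window it was found in 3 of the 10 windows of the 8 genes, and in 12.4% of all 32851 windows. Nqo1 had a window but no match in it. In each of the 3 genes with a match, the motif lay on the strand opposite to the gene. The stretches below, written along the gene, therefore show its reverse complement in capitals with 20 bases on either side.
Gclm, chr3:122245403-122245451, plus strand, GRCm38.p6: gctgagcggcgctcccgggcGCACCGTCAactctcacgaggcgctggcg
Prdx1, chr4:116685446-116685494, plus strand, GRCm38.p6: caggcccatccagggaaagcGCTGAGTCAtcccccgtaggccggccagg
Txnrd1, chr10:82859094-82859142, plus strand, GRCm38.p6: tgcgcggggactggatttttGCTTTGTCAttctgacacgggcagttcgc
The match began 134 bases upstream of the start site in Gclm, 133 in Prdx1 and 92 in 1 of the 3 windows of Txnrd1. An NF-kB pattern, GGG and CC with 5 bases of any kind between them, searched on both strands, was present in windows of 7 of the 8 genes, Sod2 among them. By window it was present in 7 of their 10 windows, and in 50.8% of all windows. These are matches of letters only. By their means, values of the 3 genes with the first motif, given below, did not run one way. Gclm was higher in null arrays but passed in neither fit (limma adjusted p = 0.465, and 0.0552 with the replicate number as a block). Txnrd1 was lower and passed only with the block (limma adjusted p = 0.444 without it and 0.0127 with it). Prdx1 differed by -0.08 log2 units, with an SE of 0.17 without the block and 0.05 with it, and passed in neither fit.

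The 6 arrays were on one scale, with medians from 4.71 to 4.73 log2 units, and no array was left out. Both replicate 1 arrays stood apart from the other 4. Deviations from the group mean correlated at r = 0.70, 0.30 and 0.48 between same-numbered arrays of the 2 genotypes, over 27022 probe sets, so each member is also given with the replicate number as a block. This pairing comes from the data, not from the labels. With both replicate 1 arrays apart, the correlations cannot settle how replicates 2 and 3 pair. Null replicate 3 correlated at r = 0.41 with wild-type replicate 2, and null replicate 2 at r = 0.21 with wild-type replicate 3. A block with replicates 2 and 3 exchanged was not fitted. The 3' minus 5' signal of beta-actin, a measure of RNA integrity, spanned 0.18 to 0.28 log2 units in null and 0.15 to 0.26 in wild-type arrays, and was higher in null in 3 of 3 pairs, by 0.022, 0.030 and 0.022. That of Gapdh spanned -0.11 to 0.07 in null and -0.09 to -0.06 in wild-type arrays and was higher in null in 2 of 3 pairs. Their part in the members' differences was not tested. Apart from the members and the manufacturer's controls, probe sets had no gene names here, so markers of neutrophils and of other cells of the culture were not analysed. In bulk RNA, fewer cells of a type and less RNA per cell cannot be told apart.

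Most antioxidant genes read lower in miR-223 null neutrophils, by amounts that ranged from almost nothing for Gpx1 and the peroxiredoxins to nearly 1 log2 unit for the quinone reductase Nqo1. By their means, 12 of the 13 probe sets, or 9 of the 10 genes, were lower in null arrays, against 52.5% of all tested probe sets, and Gclm alone was higher. The median difference, null minus wild type, was -0.37 log2 units over the 13 probe sets and -0.22 over the 10 genes with Sod2 averaged, against -0.01 over all tested probe sets. The median size of a difference was 0.37 log2 units for the 13 and 0.11 for all. The members were chosen with earlier results of these data known. Contrasts of the 13 with all tested probe sets, here and below, may therefore partly reflect that choice.

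Without pairing, none of the 13 had a limma p below 0.05 after Benjamini-Hochberg adjustment over all 27022 probe sets, where 0.189% of all tested probe sets did. Before adjustment 8 of the 13 had a limma p below 0.05, against 10.7% of all tested probe sets. Such a p together with a lower value in null was seen for 7 of the 13, against 5.33% of all tested probe sets. Of the 8, 4 were the probe sets of Sod2. With the replicate block, 4 of the 13 fell, those of Cat, Gclc, Txnrd1 and Nqo1, and none rose. The block called 10.0% of all tested probe sets, 5.05% as lower and 4.96% as higher in null. Bright probe sets were called more often: among the 9007 brightest, which held 11 of the 13 members and 3 of the 4 calls, the block called 19.1%, and 9.78% as lower. Lower values in 3 of 3 pairs were seen for 7 of the 13 members, 3 of them for Sod2, or for 5 of the 10 genes with Sod2 averaged, against 25.0% of all tested probe sets, and higher values in 3 of 3 pairs for 1 of 13, against 21.6%; in either direction, 46.6% of all tested probe sets did so.

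The count with the block depends on which pairs are kept and on the variance model. It stayed at 4 of 13, all lower, without the replicate 3 pair, where 2319 of the 27022 passed. It was 2 of 13 without the replicate 2 pair, with Nqo1 lower and Gclm higher, where 2.24% of all passed. It was 7 of 13, all lower, without the replicate 1 pair, when 3 of the 4 Sod2 probe sets joined the calls and 7.57% of all passed. With the block but without an intensity trend in the variance it was 0 of 13, where 0.707% of all passed. In that fit 6 of the 13 had a limma p below 0.05 before adjustment, as did 6213 of the 27022. Leaving out both replicate 1 arrays with no block, a choice made after seeing the data, gave 5 of 13, all lower: 3 probe sets of Sod2, Txnrd1 and Nqo1, where 3.97% of all passed.

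**Figure D1:**
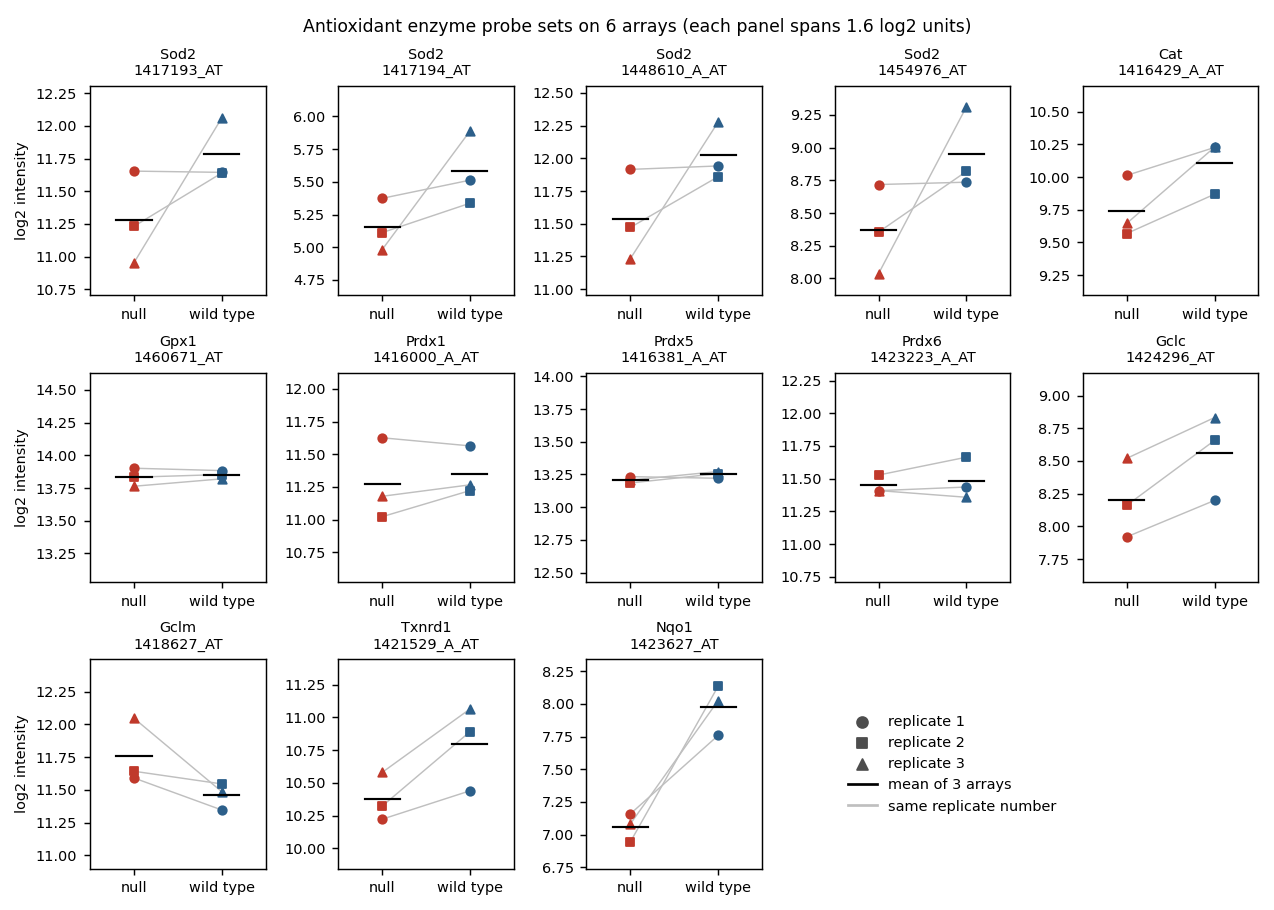
Log2 intensity of each of the 13 probe sets on the 6 arrays, null (red) left of wild type (blue); symbols give the replicate number, grey lines join same-numbered arrays and black bars are means of 3 arrays. Each panel spans the same range, so the distances between the black bars compare between panels. The means lie furthest apart for Nqo1 and close together for Gpx1 and Prdx5. For Gclm alone the null mean is the higher one, while single grey lines of other members also slope that way.

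Sod2 encodes the manganese superoxide dismutase of mitochondria, which turns superoxide into hydrogen peroxide. Its probe set 1448610_A_AT had 11.92, 11.47 and 11.23 log2 units in null replicates 1 to 3, against 11.94, 11.86 and 12.28 in wild-type replicates 1 to 3. Null replicate 1 reached the wild-type range, and the groups overlapped. The means were 11.54 ± 0.35 in null and 12.03 ± 0.22 in wild-type arrays (SD, n = 3 each), so the null signal was 71.4% of wild type (log2 difference -0.49, SE 0.18, limma adjusted p = 0.398 and 0.0967 with the replicate block).

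The other Sod2 probe sets gave the same picture. For 1417193_AT the values were 11.65, 11.23 and 10.95 in null and 11.64, 11.64 and 12.06 in wild-type arrays, a log2 difference of -0.50. For the dim 1417194_AT they were 5.37, 5.11 and 4.98 in null and 5.51, 5.34 and 5.89 in wild-type arrays, a difference of -0.42. For 1454976_AT they were 8.72, 8.35 and 8.04 in null and 8.74, 8.82 and 9.31 in wild-type arrays, a difference of -0.59, and here the groups did not overlap. Across the 4 probe sets the limma adjusted p lay between 0.384 and 0.436, and between 0.0967 and 0.139 with the block. All 4 measure 1 gene in the same RNA and are not replicates of each other. Relative to each probe set's own mean, an array's 4 Sod2 readings lay within 0.06 to 0.24 log2 units of each other.

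The Sod2 difference varied widely between the pairs. Averaged over the 4 probe sets it was -0.04 log2 units in the replicate 1 pair, -0.37 in the replicate 2 pair and -1.08 in the replicate 3 pair, so the replicate 1 arrays barely differed. Null replicate 3 held the lowest and wild-type replicate 3 the highest Sod2 reading of the 6 arrays on every one of the 4 probe sets. Without the replicate 1 pair the differences were -0.57 to -0.87 log2 units. With the block and without that pair, 3 of the 4 passed, with limma adjusted p of 0.0129 for 1417193_AT, 0.0128 for 1448610_A_AT and 0.0169 for 1454976_AT, against 0.0887 for 1417194_AT. Without the replicate 3 pair the differences shrank to between -0.24 and -0.18 log2 units, and none of the 4 passed with the block (limma adjusted p from 0.141 to 0.479). Without wild-type replicate 3 alone, and with no block, the differences ran from -0.41 log2 units for 1454976_AT to -0.27 for 1417194_AT.

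Catalase, which splits hydrogen peroxide in peroxisomes, was lower in null cells in every pair. Cat 1416429_A_AT had 10.01, 9.57 and 9.65 log2 units in null arrays, against 10.23, 9.87 and 10.23 in wild-type arrays. Only null replicate 1 lay above the lowest wild-type array. The means were 9.74 ± 0.24 in null and 10.11 ± 0.21 in wild-type arrays (SD, n = 3 each), so the null signal was 77.6% of wild type. The pairs differed by -0.21, -0.30 and -0.58 log2 units. The difference of -0.37 had an SE of 0.15 and a limma adjusted p of 0.462, and with the block an SE of 0.07 and an adjusted p of 0.0256. With the block this p was 0.115 without the intensity trend and 0.0872 without the replicate 2 pair.

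The remaining peroxidases differed little between the genotypes, with differences from -0.08 to -0.02 log2 units and limma adjusted p of 0.807 to 0.937 (0.450 to 0.733 with the block). Gpx1, a selenium enzyme that reduces peroxides with glutathione, had 13.90, 13.83 and 13.76 in null arrays, against 13.88, 13.85 and 13.82 in wild-type arrays. Its 95% confidence interval, without the block, ran from 91.4% to 106% of the wild-type signal. Prdx5, a peroxiredoxin of mitochondria and peroxisomes, had 13.23, 13.19 and 13.21 in null arrays, against 13.22, 13.26 and 13.27 in wild-type arrays, with an interval of 90.7% to 104%. Both intervals are narrow, but they depend on the variance model. Without the intensity trend, and with no block, the log2 difference had an interval of -0.22 to 0.18 for Gpx1. That for Prdx5 was -0.23 to 0.15. Both probe sets also read within about 2 log2 units of each array's maximum of 14.98 to 14.99, where signal can be compressed, and whether it was here was not tested.

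Prdx6, which uses glutathione and also repairs oxidised phospholipids, had 11.41, 11.53 and 11.41 log2 units in null arrays, against 11.44, 11.66 and 11.36 in wild-type arrays, and its interval was 83.7% to 113% of wild type. Prdx1, a cytosolic peroxiredoxin restored by thioredoxin, had 11.63, 11.02 and 11.18 in null arrays, against 11.56, 11.22 and 11.27 in wild-type arrays. Here the replicate number mattered more than genotype: both replicate 1 arrays were highest, by 0.53 log2 units over the mean of the other two in null and by 0.32 in wild type. The interval for Prdx1 was wide, 72.7% to 124% of wild type without the block. In log2 units it ran from -0.46 to 0.31, and from -0.20 to 0.05 with the block.

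The subunits of glutamate-cysteine ligase, which makes the first and rate-limiting step of glutathione synthesis, ran in opposite directions by their means. Gclc encodes the catalytic subunit. Its probe set 1424296_AT had 7.92, 8.16 and 8.52 log2 units in null arrays, against 8.20, 8.66 and 8.83 in wild-type arrays. The groups overlapped, because null replicate 3 exceeded wild-type replicate 1, yet each null array lay below its same-numbered wild-type array, with differences of -0.28, -0.50 and -0.31 log2 units. The means were 8.20 ± 0.30 in null and 8.56 ± 0.33 in wild-type arrays (SD, n = 3 each), and the null signal was 77.8% of wild type. The difference of -0.36 log2 units had an SE of 0.21 and a limma adjusted p of 0.607, and with the block an SE of 0.07 and an adjusted p of 0.0225. With the block this p was 0.0855 without the intensity trend and 0.175 without the replicate 2 pair. Without the block the difference was -0.22 log2 units when null replicate 1 was left out and -0.23 when wild-type replicate 3 was.

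Gclm encodes the modifier subunit, which raises the activity of the catalytic one. Its probe set 1418627_AT had 11.59, 11.64 and 12.05 log2 units in null arrays, against 11.35, 11.55 and 11.49 in wild-type arrays. All 3 null arrays lay above all 3 wild-type arrays, as for 8.12% of all tested probe sets, and null replicate 3 lay furthest. The means were 11.76 ± 0.25 in null and 11.46 ± 0.10 in wild-type arrays (SD, n = 3 each), and the null signal was 1.23-fold that of wild type. The difference of 0.30 log2 units had an SE of 0.13 and a limma adjusted p of 0.465, and with the block an SE of 0.08 and an adjusted p of 0.0552. It was 0.16 log2 units without null replicate 3. With the block, Gclm passed when no filter on low signal was used (limma adjusted p = 0.0492) and without the pair of replicate 2 (limma adjusted p = 0.0463). Within pairs, the change of Gclm exceeded that of Gclc by 0.52, 0.59 and 0.87 log2 units. This contrast was chosen after the values were seen and has no test.

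**Figure D2:**
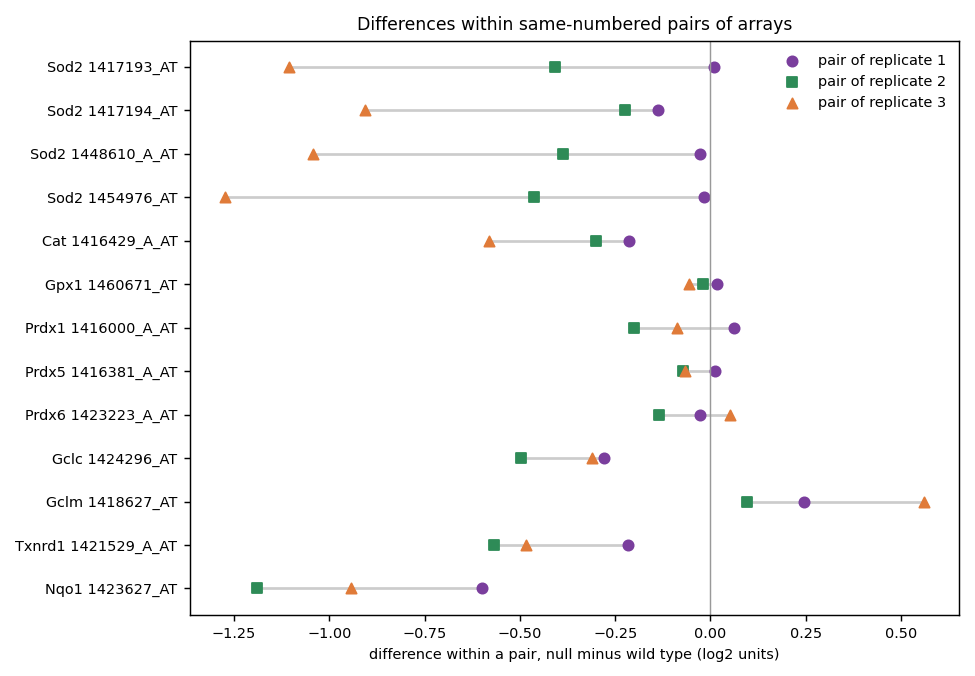
Difference of log2 intensity within each same-numbered pair, null minus wild type, for the 13 probe sets; 1 symbol per pair. Cat, Gclc, Txnrd1 and Nqo1 lie left of 0 in all 3 pairs and Gclm lies right of 0 in all 3, while the Sod2 pairs run from near 0 in replicate 1 to about -1 log2 unit in replicate 3.

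Thioredoxin reductase 1, a selenium enzyme that restores cytosolic thioredoxin with NADPH, was lower in null cells in every pair. Txnrd1 1421529_A_AT had 10.22, 10.32 and 10.58 log2 units in null arrays, against 10.44, 10.89 and 11.06 in wild-type arrays. Wild-type replicate 1 lay within the null range and the other wild-type arrays above it. The means were 10.37 ± 0.18 in null and 10.80 ± 0.32 in wild-type arrays (SD, n = 3 each), and the null signal was 74.6% of wild type. The pairs differed by -0.22, -0.57 and -0.48 log2 units. The difference of -0.42 had an SE of 0.17 and a limma adjusted p of 0.444, and with the block an SE of 0.07 and an adjusted p of 0.0127. With the block this p was 0.0898 without the intensity trend and 0.0784 without the replicate 2 pair.

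Nqo1, which reduces quinones in a way that avoids making radicals, showed the largest difference of the 13. Probe set 1423627_AT had 7.16, 6.94 and 7.08 log2 units in null arrays, against 7.76, 8.13 and 8.02 in wild-type arrays. All 3 null arrays lay below all 3 wild-type arrays, and the closest values of the 2 groups, both of replicate 1, differed by -0.60. The means were 7.06 ± 0.11 in null and 7.97 ± 0.19 in wild-type arrays (SD, n = 3 each), so the null signal was 53.2% of wild type, with a 95% interval of 43.0% to 65.8%. Of all tested probe sets, 47, or 0.174%, had a difference at or below that of Nqo1.

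The Nqo1 difference of -0.91 log2 units missed the threshold without pairing (SE 0.13, limma adjusted p = 0.0587) and passed it with the block (SE 0.11, limma adjusted p = 0.00539). The pairs differed by -0.60, -1.19 and -0.94 log2 units. With the block it passed without any 1 of the 3 pairs (limma adjusted p from 0.00176 to 0.0234), and missed without the intensity trend (limma adjusted p = 0.0570). Without the block, leaving out 1 array kept the difference between -1.02 and -0.83 log2 units, but it missed the threshold each time. The limma adjusted p then ran from 0.0523 without wild-type replicate 1 to 0.292 without null replicate 2. An exact two-sided permutation test gave p = 0.1 for Nqo1, Gclm and Sod2 1454976_AT, the 3 members whose groups did not overlap, and 0.1 is the smallest p that 3 arrays against 3 allow. Groups did not overlap for 16.8% of all tested probe sets, and all null arrays lay lowest for 8.68%.

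**Figure D3:**
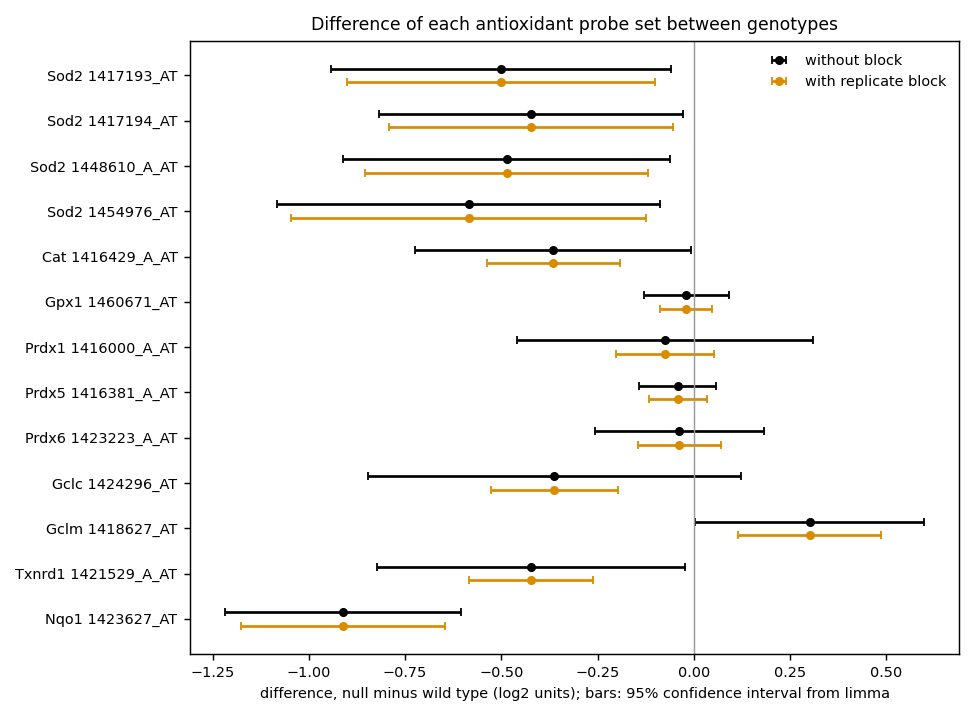
Difference of mean log2 intensity, null minus wild type, for each of the 13 probe sets, with 95% confidence intervals from limma without the block (black) and with the replicate block (orange). Nqo1 lies furthest from 0 at -0.91 log2 units; the block narrows the intervals of Cat, Prdx1, Gclc and Txnrd1 most and leaves those of Sod2 wide.

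The members differed in how they followed the replicate number, which is shown by the deviation of replicate 1 from the mean of replicates 2 and 3 within a genotype. Gclc was lower in replicate 1 by similar amounts, with -0.42 log2 units in null and -0.55 in wild-type arrays. Txnrd1 was lower too, with -0.23 in null and -0.54 in wild-type arrays. Cat was higher in replicate 1, with 0.41 in null and 0.18 in wild-type arrays. For Sod2, averaged over its probe sets, the deviation was 0.49 in null and -0.19 in wild-type arrays, of opposite sign. The SE of a difference was accordingly 0.07 with the block and 0.21 without it for Gclc, but 0.16 with the block and 0.18 without it for Sod2 1448610_A_AT.

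**Figure D4:**
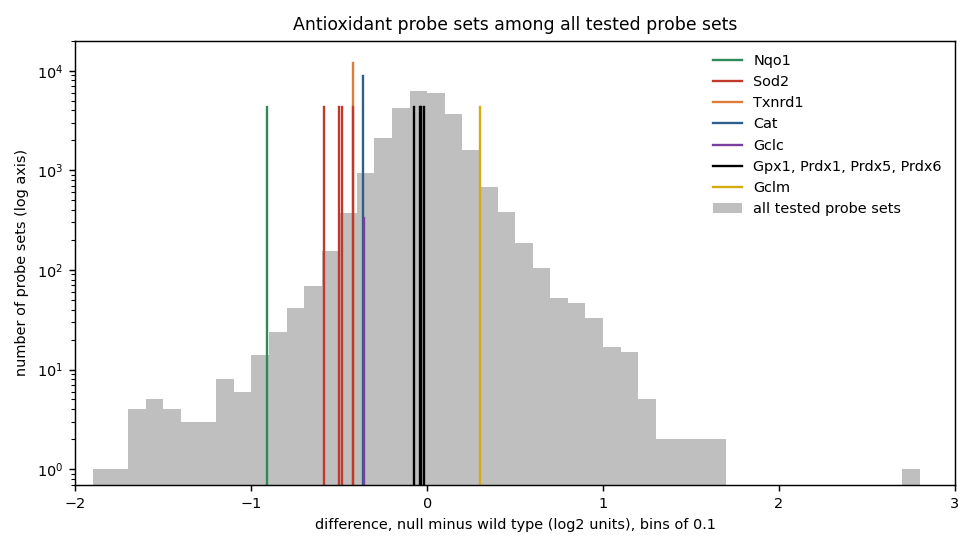
Histogram of the difference of log2 intensity, null minus wild type, over the 27022 tested probe sets (bins of 0.1, log axis), with vertical lines at the 13 members; line heights differ only to separate lines that coincide. The lines of Gpx1, Prdx1, Prdx5 and Prdx6 stand at the centre, those of Gclc, Cat, Txnrd1 and Sod2 on the left flank, and Nqo1 at -0.91 in the left tail.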

How the data were processed

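The authors deposited 1 log2 intensity per probe set and array, for 45101 probe sets and 6 arrays. The submitters' processing notes name GCOS; how background, normalization and probe summary were handled is not given in the sources used here. The log2 scale was read from the values. The authors' values already lay on one scale and were used as deposited; such scaling removes any change in total mRNA. Gene names of the 13 members came with the rule that chose them, and all 10 symbols matched RefSeq (GRCm38.p6); no table pairing other probe sets with genes was used here. The lists of further antioxidant genes, the cell markers and the search for genes of like pattern were therefore not run. Members and lists were chosen with earlier results of these data known. All members are reported.

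After 64 control probe sets were set aside, probe sets with a mean at or above the 40th percentile (4.08 log2 units) were tested with limma (version 3.58.1, lmFit and eBayes with intensity trend, under R 4.3.3), two-sided, with Benjamini-Hochberg adjustment over all 27022 and a threshold of 0.05. The code of the fit without the block was run on simulated data that held no replicate effect. The fit with the block was not tested in this way. Replicate numbers in the titles were taken to pair the arrays because all 3 same-numbered correlations of deviations exceeded 0.1. Null 3 with wild-type 2 (r = 0.41) and null 2 with wild-type 3 (r = 0.21) exceeded it too, so replicates 2 and 3 could pair either way. Alternatives were other filters, quantile normalization, median centring, no trend, the block, and leaving out arrays or pairs. The number of arrays limits the precision.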

Additional observations from a re-analysis of the deposited data

How the results depend on the processing

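Without pairing, 0 of the 13 members passed in the limma fit and in every alternative without the block that used all 6 arrays or left out 1 array (1 to 8 members at an unadjusted p under 0.05). Only 1 member had such a limma p without wild-type replicate 3, as did 1860 of the 27022 tested probe sets. In the main fit 8 members had it, as did 2881 of the 27022. With the replicate block 4 passed, all lower; the count was 5 with no filter, 4 after quantile normalization, 0 without the intensity trend and 2 to 7 when 1 pair was left out. It was 5 without both replicate 1 arrays and with no block. Over all tested probe sets the count was 51, and 2 at an adjusted p under 0.01, 0 to 58 when 1 array was left out (limma; 2064 and 1753 at an unadjusted p under 0.05 where it was 0, without null 2 and without wild-type 2), 2703 with the block, 2455 with the block and no filter, 2562 with the block and quantile normalization, 191 with the block and no trend, 2045, 606 and 2319 with the block and without the pair of replicate 1, 2 or 3, and 1072 without both replicate 1 arrays. The cause was not tested. Sod2, Cat, Prdx5, Gclc, Gclm, Txnrd1 and Nqo1 kept their direction in all alternatives run; the dim Sod2 1417194_AT was under the 60th percentile filter. Differences near 0 changed sign when 1 array was left out: that of Gpx1 spanned -0.0541 to 0.0147 log2 units (highest without null 3), that of Prdx1 -0.2501 to 0.0516 (0.0516 without null 2, 0.0316 without wild-type 1) and that of Prdx6 -0.1017 to 0.0514 (highest without wild-type 2). With the block, Prdx6 was at 0.0118 without the replicate 2 pair. The alternatives for further gene lists were not run, for want of gene names. Whether signal over background limits these values was not tested.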
